A study of Rattus norvegicus with 6 samples.

Results

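The Hox genes were described in the mesenterial fat of newborn rats, and compared between offspring of dams on a vitamin D deficient and a vitamin D adequate feed. A probe set, the group of short probes that reads 1 transcript on the array, was a member if the platform annotation gave it exactly 1 gene symbol made of Hox, a cluster letter from a to d and a number. This chose 24 of the 31099 probe sets on the array, which cover 22 Hox genes. The rat gene table used here lists 39 Hox genes, and the other 17 are not analysed here. Hoxc4 and Hoxd3 were each read by 2 probe sets and every other gene by 1.

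Hox genes encode transcription factors with a homeodomain, a DNA-binding fold, and lie in clusters named Hoxa, Hoxb, Hoxc and Hoxd. Within a cluster the paralogue number follows gene order. Genes with low numbers are switched on early and towards the head, and genes with high numbers later and towards the tail, so that the set of active genes records where along the body a cell arose. Fibroblasts and fat cell precursors keep such a code after birth, and fat depots of mouse and human differ in it. Hox proteins bind DNA together with cofactors of the Pbx, Meis and Pknox families. Polycomb proteins keep silent Hox genes off and trithorax proteins keep active ones on.

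Total RNA of wildtype Sprague-Dawley newborns, an outbred rat strain, was hybridised to 6 Affymetrix arrays. The deficient group (3 arrays) came from dams whose feed held 0 IU of vitamin D per kg, and the adequate group (3 arrays) from dams whose feed held 1000 IU per kg. The labels give neither litter nor sex of the pups, and do not state whether each array holds a different animal. The p-values could therefore reflect technical spread alone. In bulk tissue, fewer cells of a type and less RNA per cell cannot be told apart. All 6 arrays had a median signal between 155 and 166 intensity units. The first 2 deficient arrays were unlike the other 4 in quality measures. Their bacterial hybridisation controls read 7.19 and 10.1 times the adequate mean, against 0.960 times on deficient array 3, and the first principal component placed them at 43.1 and 46.4, against -26.2 to -18.5 for the other arrays. Adequate array 3 carried more signal from gut and liver markers than any other array, as given below. Values of deficient array 3 against the adequate arrays are also given for the Hox genes. Of the 9 adipocyte markers with a probe set, Fabp4, Lpl, Cd36 and Cfd were bright enough to test. Adipoq, Plin1, Lep and Cidec, which mark mature fat cells, had mean signals under the cutoff described next, and so did Pparg.

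Most of the Hox genes measured gave clear signal in this fat, and most of those from the rear of the clusters were near or below the cutoff on some array. A signal was called bright at or above the 40th percentile of mean log2 signal over all probe sets, a log2 value of 6.46 or 88.2 intensity units. By that measure 15 of the 22 Hox genes were bright on all 6 arrays, 5 on some arrays and 2 on none. The share of Hox genes bright on all arrays, 68.2%, was close to the 69.9% found over all 14217 named genes. By position, 3 of 4 with paralogue numbers 1 to 3, 9 of 10 with numbers 4 to 8 and 3 of 8 with numbers 9 to 13 were bright on all arrays. With the 60th percentile as cutoff, a log2 value of 8.10, these counts were 2 of 4, 7 of 10 and 0 of 8. As a measure of signal from genes not expected here, 29 probe sets for olfactory, vomeronasal and taste receptors had a median log2 signal of 3.84 and a 95th percentile of 5.38. Of the 22 Hox genes, 19 lay above that 95th percentile on every array, 3 of 4 with numbers 1 to 3, 10 of 10 with numbers 4 to 8 and 6 of 8 with numbers 9 to 13. The front and rear genes did not differ in share by that lower cutoff, so the difference between front and rear depends on the cutoff. Genes with numbers 4 to 8 had a higher share than those with numbers 9 to 13 at every cutoff used. Signal also depends on how well a probe set binds its target, so levels were not ranked between genes, and a dim probe set does not show that a gene is silent.

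**Figure D1:**
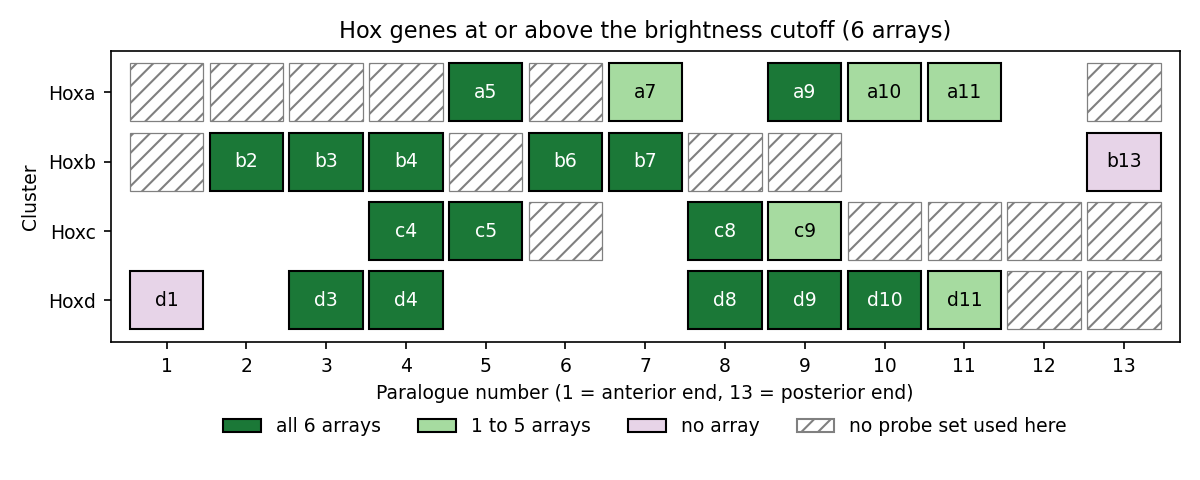
Hox genes by cluster (rows) and paralogue number (columns), coloured by the number of the 6 arrays on which at least 1 probe set was at or above a log2 signal of 6.46. All 5 genes measured from Hoxb2 to Hoxb7 are bright on all 6 arrays, while Hoxa7, Hoxa10, Hoxa11, Hoxc9 and Hoxd11 are bright on some arrays and Hoxb13 and Hoxd1 on none.

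In the Hoxb cluster all 5 genes measured between Hoxb2 and Hoxb7 were bright on every array. The exception was Hoxb13, which in mouse acts at the tail end and in the prostate. Its log2 signal was 2.93, 2.16 and 1.83 on deficient arrays 1, 2 and 3, and 0.97, 1.96 and 2.97 on adequate arrays 1, 2 and 3, below the median of the receptor probe sets on each array. Hoxc4, Hoxc5 and Hoxc8 were bright on all arrays. Hoxc9, used in mouse as a marker of white fat, lay near the cutoff, with 5.74, 6.38 and 6.24 on the deficient arrays and 6.63, 6.35 and 6.21 on the adequate arrays. Only adequate array 1 was above it.

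In the Hoxa cluster Hoxa5 and Hoxa9 were bright on all arrays, and Hoxa7, Hoxa10 and Hoxa11 on some. Hoxa11, which shapes the forearm and the uterus in mouse, read 6.15, 6.80 and 4.21 on the deficient arrays and 5.59, 5.44 and 5.61 on the adequate arrays. Only deficient array 2 reached the cutoff, and the deficient arrays enclosed the adequate ones on both sides. In the Hoxd cluster Hoxd3, Hoxd4, Hoxd8, Hoxd9 and Hoxd10 were bright on all arrays. Hoxd11, a limb gene, read 6.60, 5.98 and 6.08 on the deficient arrays and 5.43, 6.11 and 5.67 on the adequate arrays, and only deficient array 1 was above the cutoff. Hoxd1, which acts in pain-sensing neurons of the mouse, read 5.12, 3.00 and 5.18 on the deficient arrays and 5.15, 6.27 and 4.99 on the adequate arrays. No array reached the cutoff for Hoxd1, and deficient array 2 was the lowest.

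**Figure D2:**
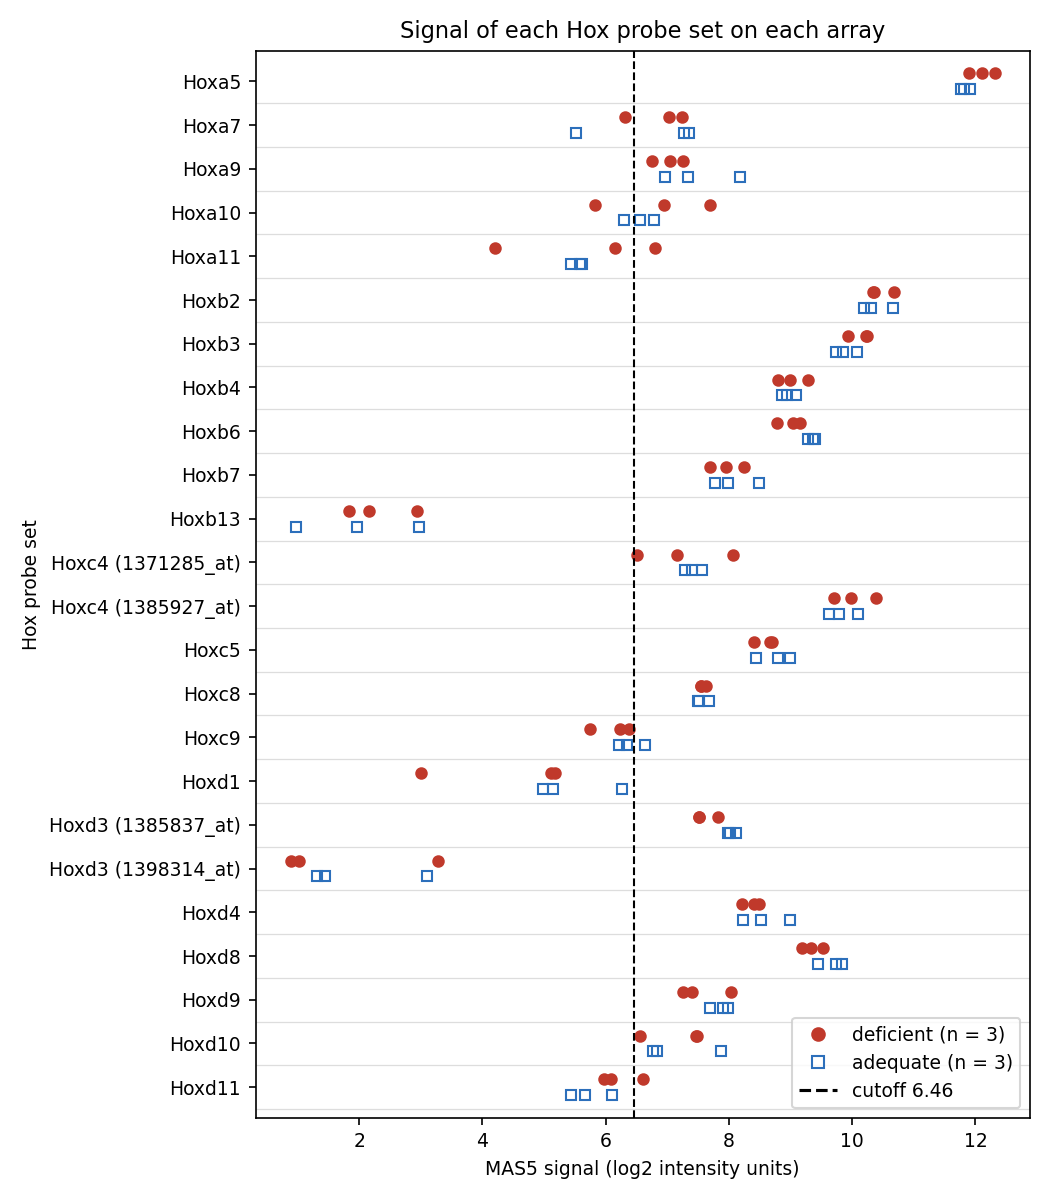
Log2 MAS5 signal of each of the 24 Hox probe sets (rows) on each array, with deficient arrays as red circles and adequate arrays as blue squares (n = 3 each). The dashed line is the cutoff of 6.46, and Hoxb6 and the brighter Hoxd3 probe set are the tested rows in which all deficient arrays lie on 1 side of all adequate arrays.

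No tested Hox probe set reached an adjusted p under 0.05 in the comparison of the maternal diets. The comparison was deficient minus adequate, fitted with limma over the 18625 probe sets whose mean over all 6 arrays reached the cutoff, 18 of the 24 Hox probe sets (17 genes) among them. None of the 18 had an adjusted p under 0.05, and the background was 0% (0 of 18625). At an unadjusted p under 0.05 there were 0 of 18 Hox probe sets, against 14.2% of all tested probe sets. The smallest unadjusted p among the 18 was 0.0651, and adjusted p ranged from 0.363 to 0.992. Log2 changes ran from -0.48 to 0.28, 9 above and 9 below 0, with a median of -0.06, against a median of -0.05 over all tested probe sets. The groups did not overlap for 2 of the 18, a share of 11.1%, where 17.4% of all tested probe sets did not overlap (6.55% higher and 10.8% lower in the deficient group). Both Hox probe sets were lower. The last Hox gene tested was Hoxa10, with a mean of 6.68, and the first left out was Hoxc9, with 6.26.

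**Figure D3:**
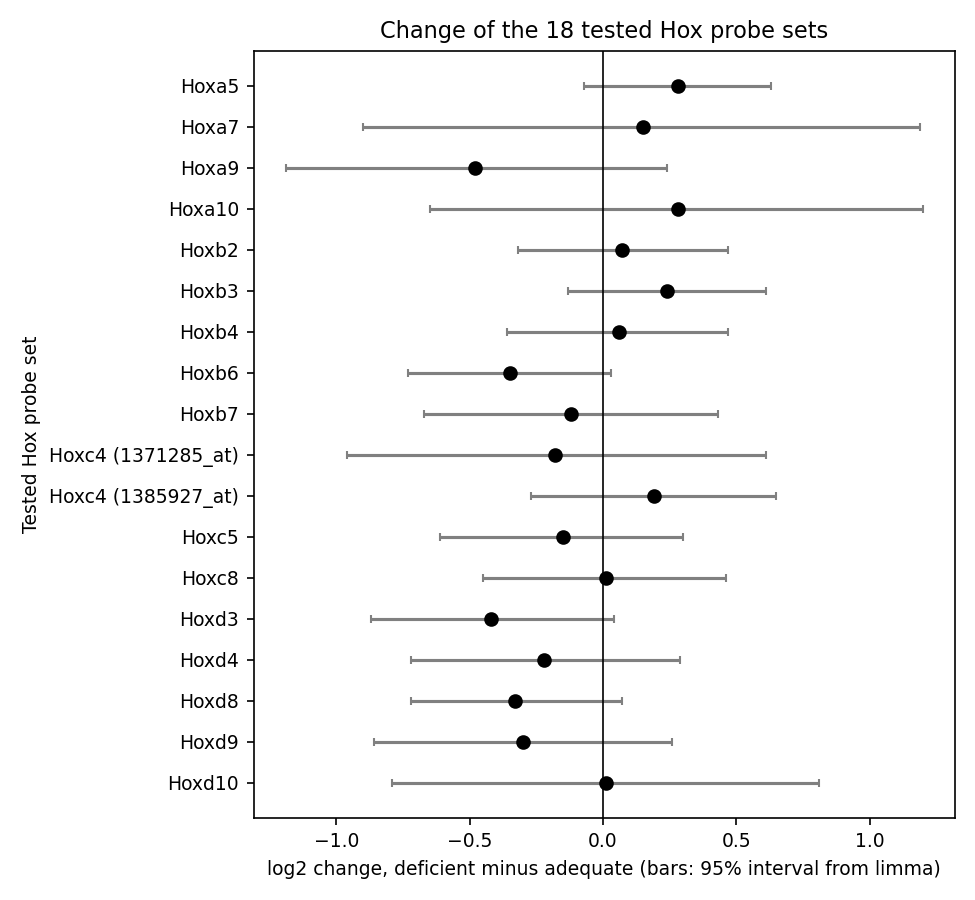
Log2 change, deficient minus adequate, of the 18 tested Hox probe sets with 95% intervals from limma. Every interval includes 0, and the points run from -0.48 for Hoxa9 to 0.28 for Hoxa5 and Hoxa10.

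Among the Hoxb genes, Hoxb6, which acts in the trunk and in blood precursors, was lower on each deficient array than on any adequate array. Its log2 signal was 8.78, 9.04 and 9.15 on deficient arrays 1, 2 and 3, and 9.28, 9.39 and 9.36 on adequate arrays 1, 2 and 3. The log2 change was -0.35 ± 0.17 (SE), with an adjusted p of 0.363 and a 95% interval from -0.73 to 0.03. Over all tested probe sets 10.8% were lower in the deficient group without overlap, so such a pattern was common. Hoxb3, which patterns the hindbrain and throat, ran the other way. It read 10.24, 10.22 and 9.93 on the deficient arrays and 9.85, 10.08 and 9.73 on the adequate arrays, where deficient arrays 1 and 2 lay above the adequate range and deficient array 3 within it. Its log2 change was 0.24 ± 0.17 (SE), with an adjusted p of 0.482. Hoxb2, another hindbrain gene, read 10.33, 10.68 and 10.36 on the deficient arrays and 10.19, 10.66 and 10.30 on the adequate arrays, and the groups overlapped almost fully. The log2 change of Hoxb2 was 0.07 ± 0.18 (SE, adjusted p 0.862). Hoxb4, known for its part in blood stem cells, read 9.29, 8.99 and 8.79 on the deficient arrays and 8.86, 8.94 and 9.09 on the adequate arrays. The deficient arrays spanned the adequate range, with a log2 change of 0.06 ± 0.19 (SE, adjusted p 0.895). The 95% intervals were -0.32 to 0.47 for Hoxb2 and -0.36 to 0.47 for Hoxb4.

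In the Hoxa cluster, Hoxa5, which acts in the lung and the middle trunk and is active in fat of mouse and human, was higher on deficient arrays 1 and 2. It read 12.31, 12.11 and 11.90 on the deficient arrays and 11.81, 11.91 and 11.76 on the adequate arrays. Deficient array 3 lay just under adequate array 2, so the groups overlapped. The log2 change was 0.28 ± 0.16 (SE), with an adjusted p of 0.407 and a 95% interval from -0.07 to 0.63. Without deficient array 3 it was 0.38 with an adjusted p of 0.0443, the only such call among the 18, while 19.4% of all tested probe sets were called in that fit. On deficient array 3 alone it stood 0.07 above the adequate mean. Hoxa9, a gene of the lower trunk and of blood precursors, read 7.05, 7.26 and 6.75 on the deficient arrays and 8.18, 6.97 and 7.34 on the adequate arrays. Adequate array 1 stood above all others, and the log2 change was -0.48 ± 0.32 (SE, adjusted p 0.470). It was -0.13 without adequate array 1 and -0.74 without adequate array 2. Hoxa10, which sets lumbar identity and acts in the uterus, read 6.95, 7.69 and 5.83 on the deficient arrays and 6.78, 6.56 and 6.30 on the adequate arrays. The deficient arrays were both the highest and the lowest, and the log2 change was 0.28 ± 0.42 (SE, adjusted p 0.756). A fit with a separate term for the first 2 deficient arrays, which sets deficient array 3 alone against the adequate arrays, gave -0.72.

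The 4 tested Hoxc probe sets had log2 changes from -0.18 to 0.19, and none passed the test. Hoxc4, a gene of the neck and shoulder level, had 2 tested probe sets that went opposite ways. The probe set 1385927_at read 10.39, 9.98 and 9.70 on the deficient arrays and 9.79, 10.09 and 9.62 on the adequate arrays, a log2 change of 0.19 ± 0.21 (SE, adjusted p 0.648). The probe set 1371285_at read 6.51, 7.15 and 8.06 on the deficient arrays and 7.28, 7.40 and 7.57 on the adequate arrays, a log2 change of -0.18 ± 0.35 (SE, adjusted p 0.818). Deficient array 1 was the highest of the 6 arrays by the first probe set and the lowest by the second, so the pair gives no common direction for Hoxc4. Hoxc5, its neighbour in the cluster, read 8.66, 8.70 and 8.40 on the deficient arrays and 8.79, 8.99 and 8.44 on the adequate arrays, with overlap and a log2 change of -0.15 ± 0.20 (SE, adjusted p 0.716).

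In the Hoxd cluster 4 of 5 tested members had a log2 change below 0, with a median of -0.30, against 55.3% of all tested probe sets below 0 and their median of -0.05. None passed the test. The windows around the start sites of the 4 are shown because these neighbours share a direction. They run from 250 bases before to 50 bases after the annotated start, from RefSeq on the GRCr8 rat assembly. Capitals mark matches on either strand to CCAAT (a promoter box), to AGGTCA (a hexamer found in binding sites of many nuclear receptors) or to the other motifs searched.
Hoxd3, chr3:80045876-80046175, + strand: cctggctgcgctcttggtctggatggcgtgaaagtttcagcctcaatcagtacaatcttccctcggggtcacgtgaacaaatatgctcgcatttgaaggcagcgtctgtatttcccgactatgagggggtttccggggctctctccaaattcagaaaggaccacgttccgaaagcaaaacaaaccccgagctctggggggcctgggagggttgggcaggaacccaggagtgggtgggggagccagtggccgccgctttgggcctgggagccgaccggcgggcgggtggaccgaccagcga
Hoxd4, chr3:80021636-80021935, + strand: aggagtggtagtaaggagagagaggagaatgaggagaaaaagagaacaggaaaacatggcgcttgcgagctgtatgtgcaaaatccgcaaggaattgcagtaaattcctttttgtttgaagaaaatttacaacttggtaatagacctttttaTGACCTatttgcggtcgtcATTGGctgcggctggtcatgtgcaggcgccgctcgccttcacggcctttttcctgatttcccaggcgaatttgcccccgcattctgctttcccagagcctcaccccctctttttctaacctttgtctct
Hoxd8, chr3:80014973-80015272, + strand: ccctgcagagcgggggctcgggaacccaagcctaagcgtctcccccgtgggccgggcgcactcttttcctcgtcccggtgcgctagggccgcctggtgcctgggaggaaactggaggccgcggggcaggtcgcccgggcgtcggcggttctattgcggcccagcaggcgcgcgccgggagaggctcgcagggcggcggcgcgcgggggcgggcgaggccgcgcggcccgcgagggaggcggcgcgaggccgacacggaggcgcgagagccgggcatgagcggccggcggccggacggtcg
Hoxd9, chr3:80007756-80008055, + strand: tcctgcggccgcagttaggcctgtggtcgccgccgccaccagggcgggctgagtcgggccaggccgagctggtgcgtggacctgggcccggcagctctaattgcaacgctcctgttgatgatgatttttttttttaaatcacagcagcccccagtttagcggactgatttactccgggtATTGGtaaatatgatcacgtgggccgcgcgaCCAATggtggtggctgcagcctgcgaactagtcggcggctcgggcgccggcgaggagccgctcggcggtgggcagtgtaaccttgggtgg
Besides those, TATAAA (the TATA box), TAATTA (a homeodomain core), TGATTNAT (a joint Pbx and Hox site) and AGTTCA (a second nuclear receptor hexamer) were searched, and none of the 4 windows held them. The Hoxd4 window held AGGTCA once and CCAAT once, the Hoxd9 window held CCAAT at 2 places, and those of Hoxd3 and Hoxd8 held no match. No marked match overlapped another. A window was found for 12 of the 22 Hox genes, 13 windows in all. AGGTCA was in 3 of these 13 windows and in 16.2% of all 33469 rat windows, AGTTCA in 1 of 13 and 14.5%, and CCAAT in 8 of 13 and 37.5%. TATAAA was in 3 of 13 and 14.2%, and TAATTA and TGATTNAT were each in 1 of 13, that of Hoxd11, and in 5.36% and 3.18% of all windows. The 4 windows held 12 to 49 CG pairs, fewest in Hoxd4 and most in Hoxd8, where the median over all windows was 7. A match describes letters only.

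Hoxd3, which shapes the first neck vertebra in mouse, was lower on every deficient array by its brighter probe set. That probe set, 1385837_at, read 7.83, 7.52 and 7.52 on deficient arrays 1, 2 and 3, and 8.12, 8.01 and 7.98 on adequate arrays 1, 2 and 3. The log2 change was -0.42 ± 0.20 (SE), with an adjusted p of 0.365 and a 95% interval from -0.87 to 0.04. The other Hoxd3 probe set, 1398314_at, was far below the cutoff and not tested. It read 3.28, 1.03 and 0.89 on the deficient arrays and 1.32, 1.45 and 3.10 on the adequate arrays, with no separation. Hoxd8, a trunk gene, read 9.52, 9.33 and 9.18 on the deficient arrays and 9.83, 9.74 and 9.44 on the adequate arrays. Only deficient array 1 reached into the adequate range, and the log2 change was -0.33 ± 0.18 (SE), with an adjusted p of 0.391 and a 95% interval from -0.72 to 0.07. Hoxd9, a gene of the lower trunk and limb, read 8.03, 7.25 and 7.40 on the deficient arrays and 7.90, 7.70 and 7.98 on the adequate arrays. Deficient array 1 was the highest of all 6 there and the other deficient arrays the lowest, with a log2 change of -0.30 ± 0.25 (SE, adjusted p 0.560). It was -0.53 without deficient array 1 and -0.14 without deficient array 2. Hoxd4, at the level of hindbrain and neck, read 8.40, 8.49 and 8.21 on the deficient arrays and 8.52, 8.99 and 8.23 on the adequate arrays. The groups overlapped, and the log2 change was -0.22 ± 0.23 (SE, adjusted p 0.643). Leaving out single arrays moved it between -0.39 (adequate array 3) and -0.01 (adequate array 2), so for Hoxd4 the direction shared by the 4 genes rests on adequate array 2. The remaining tested genes, Hoxb7, Hoxa7, Hoxc8 and Hoxd10, had log2 changes between -0.12 and 0.15 and adjusted p between 0.826 and 0.992. Of these, Hoxc8, which represses the brown fat programme in mouse, varied least, at 7.57 ± 0.04 in the deficient group and 7.56 ± 0.10 in the adequate group (SD, n = 3 each).

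Deficient array 3 was low across the Hox genes, and deficient arrays 1 and 2 were not. Of the 18 tested Hox probe sets, 15 were below the adequate mean on deficient array 3, with a median difference of -0.36, against 49.7% of all tested probe sets and a median of 0.00. Deficient array 3 was the lowest of the 6 arrays for 8 of the 18 (44.4%), against 14.7% of all tested probe sets. It was below every adequate array for 11 of 18, 61.1%, against 28.2% of all tested. All 5 Hoxd probe sets were among these 11, with 3 of 5 Hoxb, 2 of 4 Hoxa and 1 of 4 Hoxc, and so were all 4 tested probe sets with paralogue numbers 9 or higher. The lowest differences from the adequate mean were -0.75 for Hoxa9, -0.72 for Hoxa10 and -0.60 for Hoxd10. These genes were dim, with means of 7.26, 6.68 and 7.16 over all arrays, against the cutoff of 6.46. Single adequate arrays also strayed, to -0.53 for Hoxa9, -0.24 for Hoxa10, -0.38 for Hoxd10 and -1.20 for Hoxa7. The exceptions on deficient array 3, above the adequate mean, were Hoxa5 at 0.07, Hoxb3 at 0.04 and the dimmer Hoxc4 probe set at 0.64. On deficient array 1 the median difference was 0.11 and on deficient array 2 -0.03, and 8 and 10 of 18 were below the adequate mean. Adequate array 3 was also low across the Hox genes, by a smaller amount. On it 13 of 18 (72.2%) were below the mean of the other adequate arrays, with a median difference of -0.18. By the same measure 49.8% of all tested probe sets were below, with a median of 0.00. Against the mean of all adequate arrays, the reference used for deficient array 3, the median difference of the 18 was -0.12. Adequate array 3 was below both other adequate arrays for 9 of 18, against 34.4% of all tested. It was the lowest of the 6 for 4 of the 18 (22.2%), against 14.1% of all tested. Hox signal across the set was low on deficient array 3 and, to a smaller degree, on adequate array 3. The values of a single array have no replicate and no test.

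**Figure D4:**
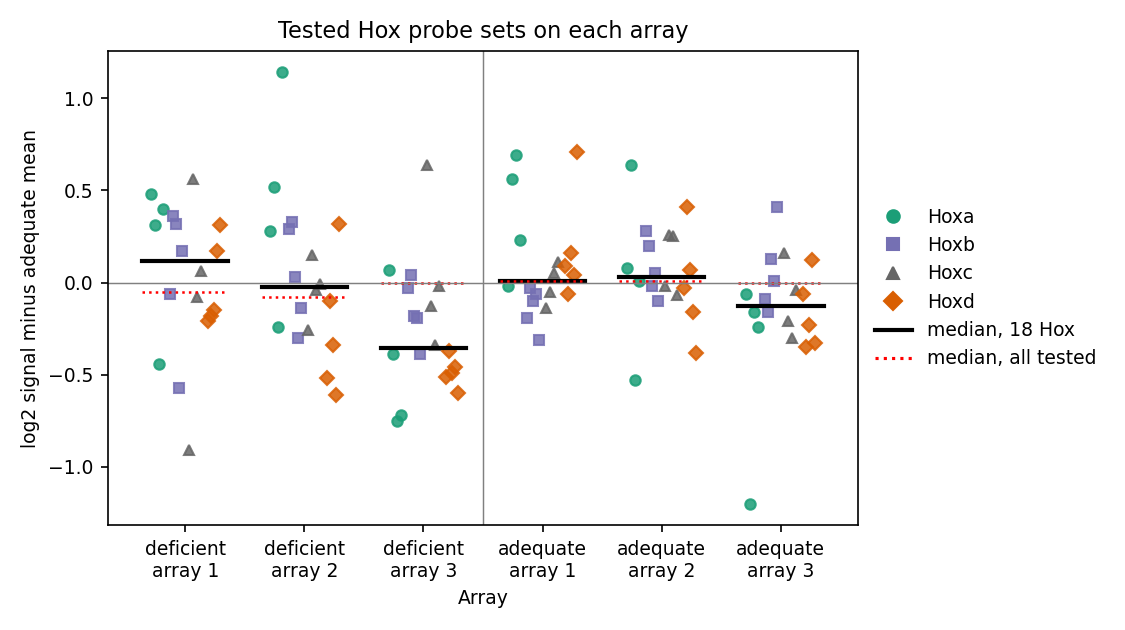
Log2 signal minus the adequate mean for the 18 tested Hox probe sets on each array, by cluster (symbols). The black bar is the median of the 18 and the red dotted line that of all tested probe sets: on deficient array 3 they lie at -0.36 and 0.00.

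The summed signals of other gene lists were also at the edge of the range on deficient array 3. The sums are of linear signals, so the brightest members weigh most in them. The hybridisation controls and the first principal component of that array lay within the range of the adequate arrays or close to it, at 0.960 times the adequate mean and at -20.2. Actb probes at the 3' end read 2.35 times those at the 5' end there, a ratio that follows RNA breakdown and labelling, against 2.40 to 4.81 on the adequate arrays, and 7.56 and 6.80 on deficient arrays 1 and 2. The 9 adipocyte markers with a probe set summed to 5820 intensity units on deficient array 3, to 3698 and 3497 on deficient arrays 1 and 2, and to 4692 to 4889 on the adequate arrays. Fabp4, Lpl and Cd36 were highest on deficient array 3, at log2 signals of 11.46, 10.83 and 9.70. Cfd, at 7.83, was below every adequate array there, and Lep, at 1.51, was the lowest of all arrays. Adipoq, Plin1, Pparg and Cidec lay within the range of the other arrays. The 6 mesothelial markers, all tested, summed to 9404 on deficient array 3, to 7688 and 6501 on the other deficient arrays, and to 7827 to 8574 on the adequate arrays. Upk1b and Krt19 were highest on deficient array 3, at 11.26 and 10.97. Msln, Lrrn4, Krt8 and Krt18 lay within the range of the other arrays. The 5 endothelial markers summed to 7356 on deficient array 3, to 8022 and 7710 on the other deficient arrays, and to 8155 to 8620 on the adequate arrays. The members did not move together. Pecam1 was lowest on deficient array 3, at 9.89, against 10.78 and 10.51 on deficient arrays 1 and 2. Tie1 was higher there, at 9.25, than on deficient arrays 1 and 2, at 8.63 and 8.66. Tek read 11.15, 11.11 and 11.15 on the deficient arrays. The 8 Hox cofactors with a probe set summed to 13665 on deficient array 3. Their sums were 23242 and 21735 on the other deficient arrays and 15180 to 16418 on the adequate arrays. The 22 regional transcription factors with a probe set, listed below, summed to 10710 on deficient array 3. Their sums were 16535 and 17262 on the other deficient arrays and 11927 to 12500 on the adequate arrays. Most of this sum was Nr2f2, at 13.30, 13.51 and 12.01 on the deficient arrays and 12.28, 12.37 and 12.48 on the adequate arrays. Hand2, Irx3 and Nr2f1 were also lower on deficient array 3 than on deficient arrays 1 and 2. Meox2, Gata6, Tcf21 and Foxf1 were higher there than on those arrays. For the 9 adipose progenitor and fibroblast markers deficient array 3, at 62131, was within the adequate range of 59217 to 69134, and deficient arrays 1 and 2 were at 121170 and 115018. Their brightest member, Col3a1, read 15.74, 15.81 and 14.39 on the deficient arrays and 14.38, 14.59 and 14.54 on the adequate arrays. By log2 change 5 of the 9 were higher and 4 lower in the deficient group. Thy1 was lower without overlap, at -0.92 ± 0.26 (SE, adjusted p 0.344). The 8 smooth muscle markers, of which 5 were higher in the deficient group at an unadjusted p under 0.05 and 0 past the adjusted threshold, summed to 149960, 163209 and 96383 on the deficient arrays and to 77470 to 94509 on the adequate arrays. Over all tested probe sets 6.03% were higher at that threshold. Adequate array 3 stood apart in markers of gut and liver. The 8 intestinal epithelium markers summed to 1000, 1045 and 885 on the deficient arrays and to 1318, 893 and 5215 on adequate arrays 1, 2 and 3. Among them Epcam, a surface protein of epithelia, read 6.84, 7.89 and 7.04 on the deficient arrays and 7.70, 6.98 and 10.68 on the adequate arrays. Cdx2, a member of the axial patterning list that sets intestinal identity and acts upstream of Hox genes, read 6.56, 6.92 and 6.24 on the deficient arrays and 6.61, 6.37 and 8.15 on the adequate arrays. The 8 hepatocyte markers summed to 3040, 1384 and 1892 on the deficient arrays and to 1815, 2193 and 6454 on the adequate arrays. Without adequate array 3 no Hox probe set passed the adjusted threshold, and the median Hox change was -0.13. The part of these cell type and quality measures in the Hox values was not tested.

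The cofactors that bind DNA with Hox proteins were bright and did not differ by the test. Of 9 such genes 8 had a probe set and 7 were tested, with 0 past an adjusted p of 0.05 and 0 at an unadjusted p under 0.05 in either direction, where 6.03% of all tested probe sets were higher and 8.18% lower at that threshold. The median log2 change of the 7 was 0.17. Meis2 read 12.57, 12.55 and 11.55 on the deficient arrays and 11.72, 11.71 and 11.73 on the adequate arrays, a log2 change of 0.50 ± 0.25 (SE, adjusted p 0.369). Deficient arrays 1 and 2 were above and deficient array 3 below all adequate arrays. Pbx3 had the same order, with 12.65, 12.55 and 11.90 on the deficient arrays and 12.03, 12.16 and 12.10 on the adequate arrays, a log2 change of 0.27 ± 0.20 (SE, adjusted p 0.513). Pknox1 had a log2 change of 0.22 ± 0.15 (SE, adjusted p 0.478) without overlap between the groups, and Pknox2 one of -0.33 ± 0.30 (SE, adjusted p 0.601).

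Polycomb and trithorax genes, which hold Hox clusters silent or active, gave 0 of 22 tested members past the adjusted threshold. At an unadjusted p under 0.05, 1 was higher and 2 were lower, close to the 14.2% of all tested probe sets, and the median log2 change was -0.22, against -0.05 over all tested. Men1, a partner of the trithorax enzymes, read 8.43, 8.32 and 8.91 on the deficient arrays and 9.25, 9.26 and 9.15 on the adequate arrays. All deficient arrays were below all adequate ones, with a log2 change of -0.67 ± 0.20 (SE, adjusted p 0.344). Suz12, a subunit of the Polycomb complex that methylates histone H3, had a log2 change of 0.71 ± 0.26 (SE, adjusted p 0.344). Its values were 11.34, 11.59 and 10.51 on the deficient arrays and 10.31, 10.67 and 10.32 on the adequate arrays, so deficient array 3 was within the adequate range. Cbx6, a Polycomb reader of that mark, had a log2 change of -0.51 ± 0.19 (SE, adjusted p 0.344), and the trithorax methyltransferase Kmt2a one of -0.43 ± 0.21 (SE, adjusted p 0.362).

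Signals that set Hox expression in the embryo were tested for 9 of 13 genes, with 0 past the adjusted threshold, 0 higher and 2 lower at an unadjusted p under 0.05 (8.18% of all tested probe sets were lower), and a median of -0.24, against -0.05 over all tested. Aldh1a2, which makes retinoic acid, an inducer of anterior Hox genes, read 9.87, 9.27 and 9.95 on the deficient arrays and 10.53, 10.01 and 10.09 on the adequate arrays. The groups did not overlap, as for 3 other members, all lower, and for 10.8% of all tested probe sets in that direction. The log2 change was -0.51 ± 0.22 (SE, adjusted p 0.347). Cyp26b1, which breaks retinoic acid down, had a log2 change of -0.34 ± 0.16 (SE, adjusted p 0.360), and the retinoic acid receptor Rarb one of -0.24 ± 0.16 (SE, adjusted p 0.458), both also without overlap. Gmnn, which restrains both DNA replication and Hox activity, had a log2 change of -0.41 ± 0.17 (SE, adjusted p 0.344), again without overlap.

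Among 27 regional transcription factors of fat depots and gut mesenchyme, 22 had a probe set and 9 were tested. These 9 were Gata6, Meox2, Hand2, Nr2f2, Irx3, Foxf1, Wt1, Tcf21 and Nr2f1, of which Foxf1 marks the mesenchyme around the gut and Wt1 visceral mesothelium and fat. The other 13 had mean signals under the cutoff. They included genes of subcutaneous fat and limb (Shox2, Tbx5) and of stomach mesenchyme (Barx1), and also genes of gut mesenchyme and visceral linings (Nkx2-3, Gata4, Gata5, Tbx18), so members of several regions were dim. None passed the adjusted threshold. At an unadjusted p under 0.05, 0 were higher and 1 was lower, where 6.03% of all tested probe sets were higher and 8.18% lower. That 1 was Gata6, at 8.04, 7.57 and 8.30 on the deficient arrays and 8.81, 8.17 and 8.92 on the adequate arrays. Deficient array 3 lay above adequate array 2, so the groups overlapped, and the log2 change was -0.66 ± 0.26 (SE, adjusted p 0.344). Meox2 had -0.36 ± 0.16 (SE, adjusted p 0.354), Hand2 0.32 ± 0.18 (SE, adjusted p 0.410) and Nr2f2 0.57 ± 0.33 (SE, adjusted p 0.410).

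The mean profile of the 15 Hox genes bright on all arrays, centred per gene, was 0.10, -0.01 and -0.24 on the deficient arrays and 0.12, 0.07 and -0.04 on the adequate arrays. Of 10573 other named genes tested, Polm, Rilpl1, Cbr3, Prr5l and Fahd1 followed it most closely, with Pearson's r between 0.984 and 0.991 over the 6 arrays. With 6 arrays and so many genes, correlations of this size describe these arrays only. Cbr3, a carbonyl reductase, read 7.78, 7.54 and 7.21 on the deficient arrays and 7.80, 7.63 and 7.52 on the adequate arrays, with deficient array 3 the lowest as in the Hox profile.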

How the data were processed

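Gene expression was measured in mesenterial fat with 1-colour Affymetrix Rat Genome 230 2.0 arrays. The deposited values are linear intensity signals made by the authors with MAS5 and Affymetrix Expression Console, per the submitters' processing notes. The 2% trimmed mean is 500 on every array, which removes differences in total RNA. The sources used here do not give background settings, and no detection calls were used. The 57 control probe sets were left out and signals were log2 transformed without an offset.

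Genes were named from the platform annotation. All 22 Hox symbols are in the GRCr8 RefSeq table, and 23 of 24 probe sets match it by Entrez identifier. Groups came from the sample titles. limma 3.58.1 in R 4.3.3 (lmFit, eBayes with a variance trend) tested deficient minus adequate, two-sided, with Benjamini-Hochberg adjustment over all 18625 tested probe sets at 0.05. It was tested on simulated data. Lists used each gene's brightest probe set. The members and lists were chosen with earlier results of these data known. Full values were given for the 12 smallest p, for genes with 2 probe sets and for the 8 brightest genes, and for up to 4 members of each list. The number of arrays limits precision. Figures used matplotlib 3.10.9.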

Additional observations from a re-analysis of the deposited data

How the results depend on the processing

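No tested Hox probe set had an adjusted p under 0.05 under any alternative except without deficient array 3 (1, Hoxa5, with a range over the arrays left out of 0 to 1). All tested probe sets past that threshold numbered 0 to 3618 over the arrays left out, the highest without deficient array 3, and 3462 with array weights. Hox probe sets at an unadjusted p under 0.05 numbered 2 higher and 2 lower with array weights, and 1 lower without a variance trend. Over the arrays left out they ranged from 0 to 3 higher and from 0 to 2 lower. They numbered 3 higher and 1 lower without deficient array 3, 2 lower without deficient array 1 and 1 lower without adequate array 2. Among all tested probe sets, 35.3% reached that p in either direction without deficient array 3, and 35.9% did under array weighting. The share was 8.85% without deficient array 1, 12% without adequate array 2 and 12.9% when the variance trend was dropped. The median Hox change was -0.36 with that term and -0.31 with the hybridisation controls as a covariate, against -0.14 to 0.02 over the arrays left out and 0.06 with the filter at the 60th percentile. The count of genes bright on all arrays was 9 at the 60th percentile.

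Of 297 alternative values for single Hox probe sets, 33 changed sign, none of them past the threshold, and their cause was not tested. With the term for deficient arrays 1 and 2 the log2 changes that turned were -0.13 (Hoxc4, 1385927_at), 0.64 (Hoxc4, 1371285_at), -0.72 (Hoxa10), -0.03 (Hoxb2), -0.39 (Hoxa7), -0.18 (Hoxb4), -0.02 (Hoxc8) and -0.60 (Hoxd10). With the hybridisation covariate they were -0.09, 0.50, -0.66, -0.08, -0.28 and -0.15 for the first 6 of these, and -0.42 for Hoxd10. With array weights Hoxb7 was at 0.01 and Hoxc8 at -0.02. Over the arrays left out the log2 change ranged from -0.16 to 0.77 for Hoxa10, -0.59 to 0.19 for Hoxc4 (1371285_at), -0.28 to 0.08 for Hoxb7, -0.04 to 0.21 for Hoxb2, -0.45 to 0.47 for Hoxa7, -0.08 to 0.17 for Hoxb4, -0.03 to 0.06 for Hoxc8 and -0.18 to 0.37 for Hoxd10. Other probe sets kept their sign over the arrays left out. Those of them that moved by 1.5 times or more there ranged from -0.74 to -0.13 for Hoxa9, -0.53 to -0.14 for Hoxd9 and -0.39 to -0.01 for Hoxd4. The ranges were -0.30 to -0.03 for Hoxc5, 0.01 to 0.36 for Hoxc4 (1385927_at), 0.18 to 0.38 for Hoxa5 and 0.16 to 0.34 for Hoxb3. With the term for deficient arrays 1 and 2, Hoxa5, Hoxb3 and Hoxb6 shrank in size, to 0.07, 0.04 and -0.19. Hoxa9, Hoxd9, Hoxd4, Hoxc5, Hoxd3 and Hoxd8 grew in size with it, to -0.75, -0.46, -0.37, -0.34, -0.51 and -0.49.

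Replicate numbers are shared between the groups, but same-numbered arrays deviated together with correlations of 0.11, 0.15 and 0.01, so they were not treated as pairs. With the replicate block 0 Hox probe sets and 0 of 18625 probe sets passed, and the median Hox change stayed at -0.06.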

Other observations

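Other transcripts of the Hoxa cluster were measured that the choice by symbol left out. Hoxa3l1, a predicted protein-coding gene whose RefSeq span encloses Hoxa4, read 8.71, 9.10 and 9.88 on the deficient arrays and 9.08, 8.99 and 9.60 on the adequate arrays in log2 signal, with deficient array 3 the highest of the 6. Its means were 9.23 ± 0.59 in the deficient group and 9.22 ± 0.33 in the adequate group (SD, n = 3 each). The antisense RNA Hoxa11-as was under the cutoff on every array, with 2.96, 2.85 and 2.35 on the deficient arrays and 2.52, 2.59 and 4.45 on the adequate arrays.

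The Hox genes did not show the wider spread that most probe sets had among the deficient arrays. The SD was larger in the deficient than in the adequate group for 44.4% of the 18 tested Hox probe sets, against 69.8% of all tested probe sets.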
